A study of Mus musculus with 6 samples.

Results

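The genes described here are 34 enzymes and regulators of sterol and fatty acid synthesis, followed in RNA bound to ribosomes 24 h after mice received an injection of lipopolysaccharide (LPS) or of saline. They were found by gene symbol in the authors' deposited comparison table, in which all 34 had at least 1 transcript cluster, a set of array probes for 1 transcribed region, among 27364 gene symbols. Msmo1 appears there under its older name, Sc4mol. A symbol with several clusters, as for Fasn, Scd2 and Soat1, was represented by its brightest cluster, as averaged on the 6 arrays. By role, 18 members form the sterol pathway (7 of the mevalonate arm and 11 from squalene to cholesterol), 5 control the SREBP transcription factors, 2 move or store sterols and 9 make, elongate or desaturate fatty acids.

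The LPS group had 3 arrays, named LPS 1 to LPS 3, from mice given 5 mg/kg LPS, and the saline group had 3 arrays, named saline 1 to saline 3. Each array held RNA from 5 mice aged 2 to 3 months, with males and females in equal ratio per the labels. Mice of both groups were transgenic for a ribosomal protein, Flag/EGFP-RPL10a, placed under the promoter of CD11b, a myeloid integrin gene. Translating ribosome affinity purification (TRAP) pulls down such tagged ribosomes with the mRNA they carry, which was then read on Affymetrix mouse gene arrays. No source used here gives the tissue. Of 14 microglia markers 10 had a mean log2 signal of at least 6 on these arrays. So did all 12 neuron markers, all 10 astrocyte markers and all 12 oligodendrocyte markers. The summed linear signal per array was 1322 to 1898 for the microglia markers. It was 32770 to 37880 for the neuron markers and 9881 to 15345 for the oligodendrocyte markers. RNA carrying markers of other cell types was thus read at high signal, and member values cannot be credited to CD11b-expressing cells alone.

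Cholesterol is built from acetyl-CoA through mevalonate, farnesyl diphosphate and squalene, and fatty acids are built from the same acetyl-CoA through malonyl-CoA. Both routes are switched on by sterol regulatory element-binding proteins (SREBPs), membrane-bound transcription factors that SCAP carries to the Golgi for cleavage when sterols are scarce and that INSIG proteins hold back when sterols are plentiful. SREBP-2, from Srebf2, acts mainly on cholesterol genes, and SREBP-1c, from Srebf1, mainly on fatty acid genes. On promoters SREBPs act together with NF-Y, a factor that binds the sequence CCAAT.

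Promoter sequences were examined as a feature that the choice of members did not use. The members belong to routes that SREBPs switch on together with NF-Y, however, so a high share of CCAAT was foreseeable. RefSeq windows on GRCm38.p6, reaching from 250 bases before to 50 bases after a gene start, were at hand for 27 of the 34 members, in 35 windows. CCAAT, searched on both strands so that it can also read ATTGG, was found for 14 of the 15 sterol pathway genes with a window, for 3 of 6 fatty acid genes and for 22 of the 27 members. Counted by gene in the same way, 41.1% of all 27025 genes with a window had it. Of the 32851 windows of all genes 37.4% held it, against 65.7% of the member windows and 77.8% of the 18 sterol pathway windows. A core sterol regulatory element, searched on both strands as TCACNCCAC, was found in Hmgcs1 alone among the members and in 1.24% of all windows. The looser TCACNCNAC, of which every TCACNCCAC match is also a match, was found in Hmgcs1 and Nsdhl and in 2.70% of all windows. A match is a string of letters and not a measured binding site, and a window without one says nothing of a factor's binding. The 250 bases before the gene start follow, 5′ to 3′ on the gene's strand, for the 5 members in which the LPS and saline arrays did not overlap, and for Hmgcs1 and Fasn, early in the mevalonate arm and the synthase of fatty acids. Capitals mark CCAAT or ATTGG and, in Hmgcs1, also TCACCCCAC. In Fasn 1 CCAAT and 1 ATTGG overlap each other.
Hmgcs1, chr13:119690101-119690350, plus strand: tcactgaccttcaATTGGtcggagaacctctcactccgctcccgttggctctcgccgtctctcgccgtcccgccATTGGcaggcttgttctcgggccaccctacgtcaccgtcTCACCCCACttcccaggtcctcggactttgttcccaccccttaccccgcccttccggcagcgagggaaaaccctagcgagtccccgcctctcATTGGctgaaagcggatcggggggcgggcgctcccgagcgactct
Mvd, chr8:122443423-122443672, minus strand: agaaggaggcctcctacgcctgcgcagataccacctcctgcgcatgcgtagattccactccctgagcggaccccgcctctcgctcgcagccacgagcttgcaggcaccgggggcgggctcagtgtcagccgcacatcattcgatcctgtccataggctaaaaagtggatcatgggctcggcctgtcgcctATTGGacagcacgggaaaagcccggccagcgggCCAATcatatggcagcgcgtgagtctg
Idi1, chr13:8885356-8885605, plus strand: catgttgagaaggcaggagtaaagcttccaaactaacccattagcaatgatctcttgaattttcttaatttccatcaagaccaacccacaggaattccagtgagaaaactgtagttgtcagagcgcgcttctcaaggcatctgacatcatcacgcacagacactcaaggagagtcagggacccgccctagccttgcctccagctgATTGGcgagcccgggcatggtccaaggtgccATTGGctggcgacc
Cyp51, chr5:4104698-4104947, minus strand: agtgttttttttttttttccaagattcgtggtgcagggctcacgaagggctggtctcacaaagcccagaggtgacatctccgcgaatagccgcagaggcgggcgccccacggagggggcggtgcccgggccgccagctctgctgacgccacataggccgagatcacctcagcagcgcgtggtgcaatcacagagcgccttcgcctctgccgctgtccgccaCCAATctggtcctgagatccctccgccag
Nsdhl, chrX:72918271-72918520, plus strand: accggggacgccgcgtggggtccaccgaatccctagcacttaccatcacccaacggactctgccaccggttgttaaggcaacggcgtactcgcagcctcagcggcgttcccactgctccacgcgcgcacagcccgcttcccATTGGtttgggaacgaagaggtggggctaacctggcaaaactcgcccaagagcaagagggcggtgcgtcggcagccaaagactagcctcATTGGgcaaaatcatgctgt
Srebf2, chr15:82147019-82147268, plus strand: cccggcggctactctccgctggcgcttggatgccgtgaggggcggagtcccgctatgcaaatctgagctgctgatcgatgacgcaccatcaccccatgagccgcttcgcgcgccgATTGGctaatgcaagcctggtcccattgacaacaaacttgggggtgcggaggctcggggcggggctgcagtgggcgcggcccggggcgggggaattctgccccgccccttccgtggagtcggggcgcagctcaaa
Fasn, chr11:120824548-120824797, minus strand: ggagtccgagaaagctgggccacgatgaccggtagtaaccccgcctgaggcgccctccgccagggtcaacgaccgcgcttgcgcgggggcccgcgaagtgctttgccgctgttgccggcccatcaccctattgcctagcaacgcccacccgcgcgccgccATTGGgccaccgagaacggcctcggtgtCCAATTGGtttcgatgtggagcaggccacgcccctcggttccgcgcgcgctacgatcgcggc

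**Figure D1:**
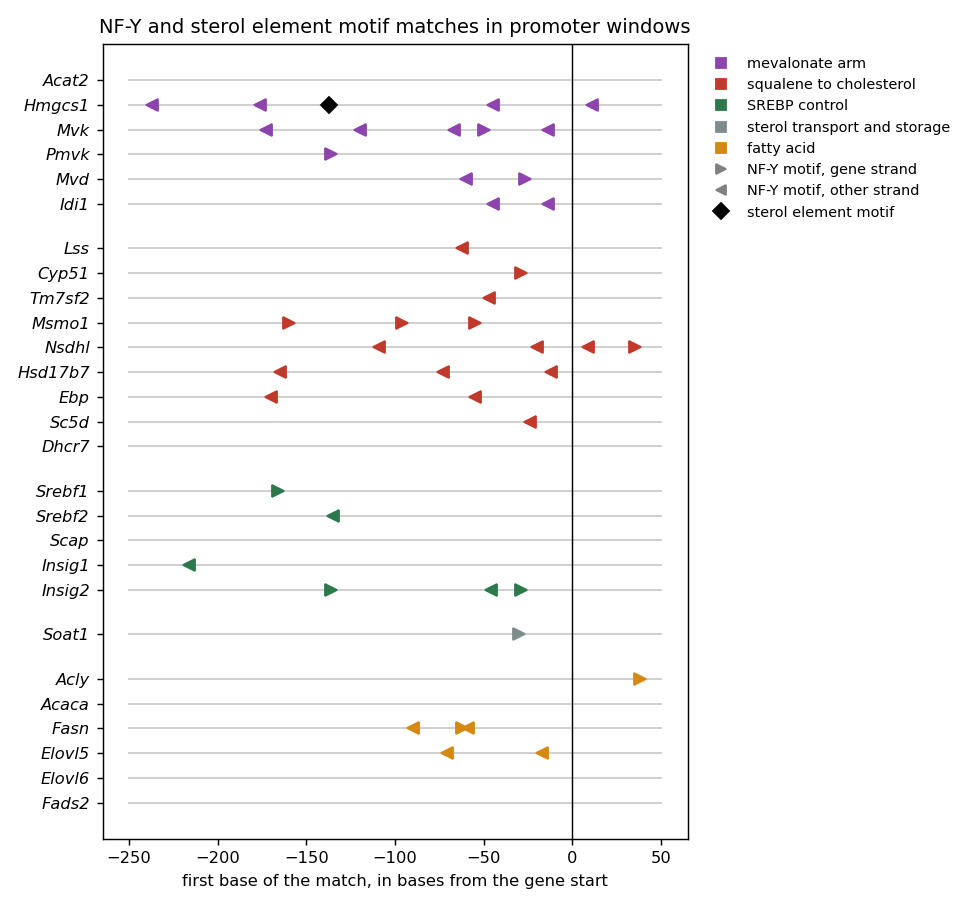
Positions of CCAAT (triangles, pointing right on the gene's strand and left on the other) and of TCACNCCAC (diamond) in the first listed promoter window of 27 members, as the first base of each match in bases from the gene start. Rows are genes, coloured by role. Matches stand upstream of the start in most sterol pathway genes, and the single diamond is in Hmgcs1, at -137.

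The arrays numbered 3 stood apart from the rest in both groups. The first principal component over all clusters, with 53.2% of the variance, parted LPS 3 and saline 3 from the other 4 arrays, and the second, with 16.3%, parted the groups. The median log2 signal was 5.17, 5.19 and 5.42 in LPS 1 to LPS 3, against 5.17, 5.15 and 5.35 in saline 1 to saline 3.

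In the array data, no member passed the test (limma over 34472 clusters, Benjamini-Hochberg adjusted p under 0.05, where 0.00290% of all clusters and 0.00749% of those with a mean log2 signal of at least 6 were called). The lowest adjusted p among members was 0.9999. The 1 cluster called belonged to the interferon-induced gene Ifi44, with a log2 difference of 2.65 ± 0.21 (SE), and 3 clusters were called with the replicate block. Every difference below is a log2 difference, LPS minus saline, and for members it is a description of values that did not pass the test.

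Most sterol pathway genes lay slightly lower after LPS, though none passed the test. Of its 18 members 16 had a negative difference, with a median of -0.24 and a range of -0.57 to 0.23, while 50.4% of all clusters, and 57.2% of the 13356 clusters with a mean log2 signal of at least 6, had a negative one. The median difference was -0.0016 over all clusters and -0.02 over the brighter ones. All 34 members were among the brighter clusters. Measured from the saline group mean, the mean over the 18 genes was -0.14, -0.33 and -0.16 in LPS 1, LPS 2 and LPS 3, against -0.04, -0.05 and 0.08 in saline 1, saline 2 and saline 3. All 3 LPS arrays were thus below all 3 saline arrays, with LPS 2 the lowest. Leaving out LPS 2 gave a median of -0.14, and leaving out LPS 3 together with saline 3 gave -0.22. The 9 fatty acid members differed from saline by a median of -0.01, and their array means overlapped. The difference between the sterol and fatty acid genes was not tested, as the members were chosen with earlier results of these data known. Both sets were read on the same 6 arrays.

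**Figure D2:**
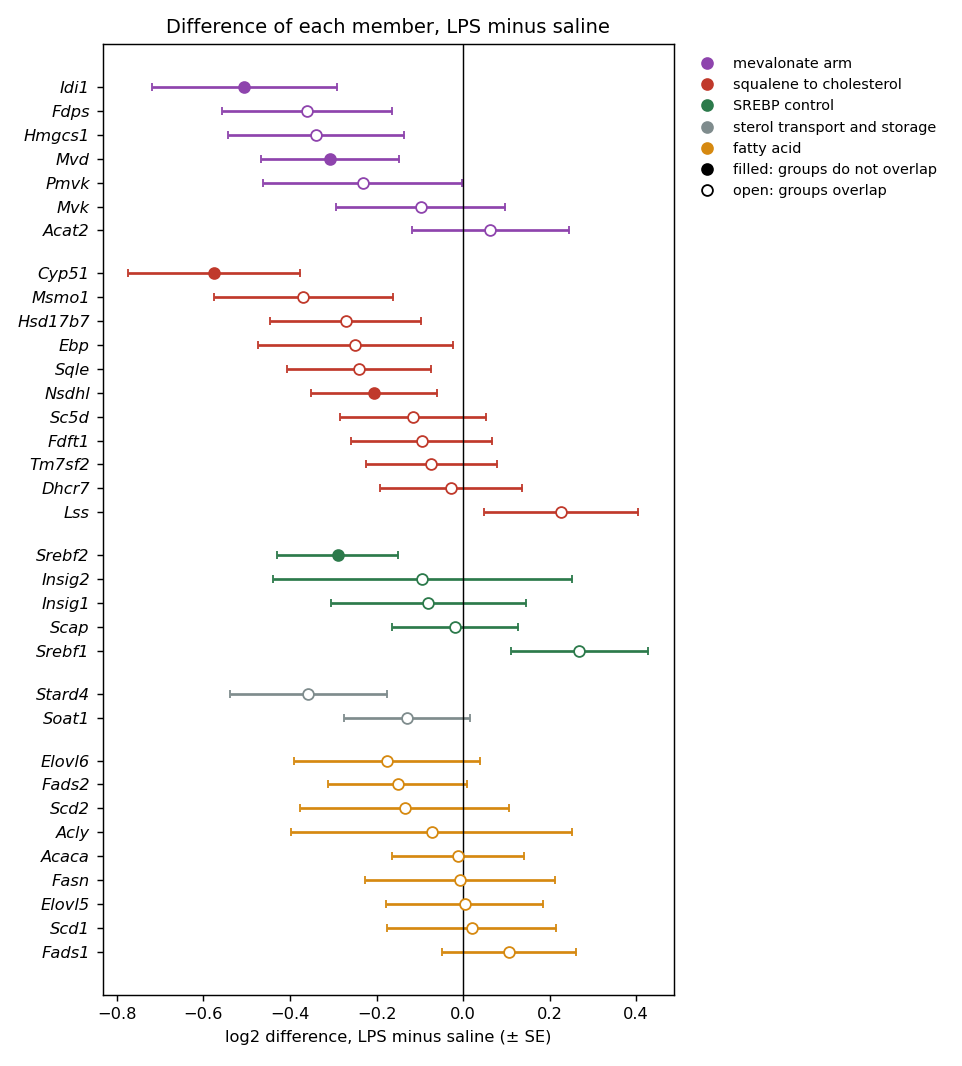
Log2 difference, LPS minus saline, of each of the 34 members with its standard error, grouped by role and ordered within a role. Filled points mark the 5 members in which all LPS arrays lay below all saline arrays. The mevalonate and squalene-to-cholesterol genes lie mostly left of 0, with Cyp51 (-0.57) and Idi1 (-0.51) farthest, and the fatty acid genes lie around 0.

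In 5 members every LPS array lay below every saline array, and in 0 members above. Over all clusters 3.10% parted in this way downward and 3.61% upward, or 3.94% and 2.70% of the brighter clusters. These 5 were Cyp51, Idi1, Mvd, Nsdhl and Srebf2. At an unadjusted p under 0.05, which 0.772% of all clusters passed downward and 1.49% upward (0.726% and 1.24% of the brighter ones), 2 members were lower, Cyp51 and Idi1, and 0 were higher. With the replicate block 4 were lower, as Msmo1 and Stard4 joined them, and 2.52% of all clusters were (2.44% of the brighter ones). Without LPS 1 the count was 5, where 0.940% of all clusters passed downward (1.38%). It was 1 without LPS 2, LPS 3, saline 1 or saline 2. In these settings 0.403% (0.180%), 1.77% (0.816%), 0.766% (0.449%) and 0.786% (0.674%) of all clusters passed downward, in that order. Fewer arrays part more easily. Without LPS 1, 11 members and 7.21% of all clusters (10.3% of the brighter ones) had no overlap downward. The numbers were 5 members and 4.54% (4.59%) without LPS 2, and 7 members and 12.4% (12.4%) without LPS 3. They were 6 members and 6.85% (7.45%) without saline 1. Without saline 2 the numbers were 11 members and 6.47% (7.32%), and without saline 3 they were 10 members and 7.30% (9.47%). Without both arrays numbered 3 they were 12 members and 17.8% (18.4%).

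Among the enzymes of the mevalonate arm, Hmgcs1 makes HMG-CoA, a precursor of mevalonate. Its log2 signal was 10.62, 10.23 and 10.23 in LPS 1 to LPS 3, against 10.82, 10.92 and 10.36 in saline 1 to saline 3. LPS 1 stood above saline 3, so the groups overlapped, and the difference was -0.34 ± 0.20 (SE). It ran from -0.51 to -0.23 when single arrays were left out. The authors' deposited table gave Hmgcs1 a signed fold of -1.55 from averages of 10.23 after LPS and 10.86 after saline, a wider gap than that of the plain means, 10.36 ± 0.23 and 10.70 ± 0.30 (SD, n = 3 each). That table averages by bi-weight, which gives values far from the rest less weight, and its LPS average equals the level of LPS 2 and LPS 3.

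The next enzymes of the arm turn mevalonate into the isoprene units from which sterols are joined. Mvd, which makes isopentenyl diphosphate, had log2 signals of 7.84, 7.48 and 7.52 after LPS, against 7.90, 7.92 and 7.92 after saline. The saline arrays lay within an SD of 0.01 of one another, LPS 1 was close beneath them and LPS 2 and LPS 3 were well below, for a difference of -0.31 ± 0.16 (SE). Idi1, which isomerises that product, had 7.48, 6.95 and 7.33 after LPS, against 7.48, 7.70 and 8.08 after saline, a difference of -0.51 ± 0.21. The groups of Idi1 touched, since LPS 1 lay below saline 1 by less than 0.001 (-9e-04). Fdps, which joins the units to farnesyl diphosphate, had 8.34, 7.77 and 7.87 after LPS, against 8.45, 8.45 and 8.16 after saline. LPS 1 was above saline 3, and the difference was -0.36 ± 0.20. Of the other 3 enzymes, the kinases Pmvk and Mvk differed by -0.23 ± 0.23 (-0.034 without saline 3, -0.40 without LPS 3) and -0.10 ± 0.20, and Acat2, a thiolase that starts the route, by 0.06 ± 0.18. The clusters of Idi1 and Fdps also carry the names of predicted genes in the deposited table, so their probes may read more than 1 transcript.

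From squalene onward the widest gap was in Cyp51, the demethylase that acts on lanosterol. Its log2 signal was 6.78, 6.83 and 6.26 after LPS, against 7.38, 7.05 and 7.17 after saline, so that LPS arrays were 1.49-fold lower on average. The groups did not overlap, LPS 3 was the lowest array, and the difference was -0.57 ± 0.20 (SE, limma 95% interval -1.03 to -0.12). Its promoter above holds 1 CCAAT, against 3 in that of Hmgcs1. Msmo1, which removes the methyl groups that follow, had 7.74, 7.11 and 7.67 after LPS, against 8.01, 7.70 and 7.91 after saline. Each LPS array was below the saline array of its number, LPS 1 was above saline 2, and the difference was -0.37 ± 0.21 (-0.17 without LPS 2). Nsdhl, the dehydrogenase of the same demethylation, had 8.16, 8.18 and 8.34 after LPS, against 8.37, 8.43 and 8.50 after saline. It parted without overlap by a smaller step, -0.21 ± 0.15.

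Hsd17b7, which reduces the ketone left by that reaction, had 6.70, 6.91 and 7.20 after LPS, against 7.13, 7.27 and 7.23 after saline. LPS 1 and LPS 2 were below all saline arrays and LPS 3 was not, for a difference of -0.27 ± 0.17 (SE; -0.15 without LPS 1). Sqle, the epoxidase that is a slow step of the route, had 8.07, 7.76 and 7.98 after LPS, against 8.32, 7.99 and 8.22 after saline. Its difference was close to the same for each array number, -0.25, -0.23 and -0.24 for numbers 1, 2 and 3, and -0.24 ± 0.17 for the group, although LPS 1 was above saline 2. Without LPS 2 it was -0.15. The isomerase Ebp differed by -0.25 ± 0.23, the desaturase Sc5d by -0.12 ± 0.17 and Fdft1, which makes squalene, by -0.10 ± 0.16. Single arrays moved these values: Ebp was -0.044 without saline 3 and -0.43 without saline 2, Sc5d was -0.0019 without saline 1 and -0.22 without saline 2, and Fdft1 was -0.011 without saline 2 and -0.22 without saline 3. The reductases Tm7sf2 and Dhcr7 differed by -0.07 ± 0.15 and -0.03 ± 0.16. Lss, which folds squalene epoxide into lanosterol, was the 1 enzyme of this stretch with a positive difference, 0.23 ± 0.18, and each LPS array lay above the saline array of its number.

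**Figure D3:**
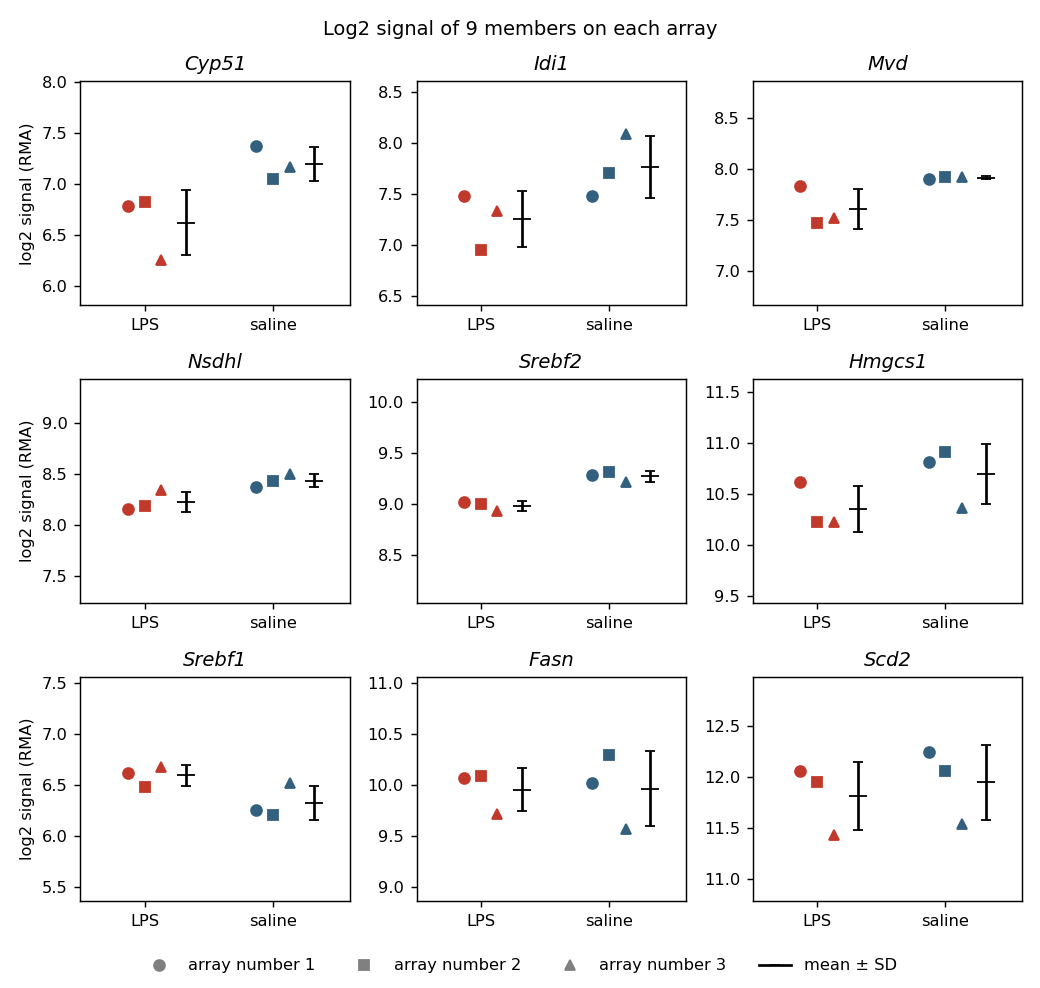
Log2 signal of 9 members on each of the 6 arrays, LPS left and saline right, with the symbol giving the array number and the bar the group mean ± SD. Each panel spans the same number of log2 units. Cyp51, Idi1, Mvd, Nsdhl and Srebf2 show no overlap between groups, while Fasn and Scd2 overlap, with both arrays numbered 3 below the other 4.

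The 2 SREBP genes had differences of opposite sign. Srebf2 had log2 signals of 9.01, 8.997 and 8.93 after LPS, against 9.28, 9.31 and 9.21 after saline, a difference of -0.29 ± 0.14 (SE). Its arrays were tight within each group (SD 0.05 in both), the groups did not overlap, and the value stayed between -0.33 and -0.26 over all alternatives. The authors' deposited table gave it an unmoderated p of 0.00181, the smallest of any member there, whereas limma, which draws small variances toward those of all clusters, gave an unadjusted p of 0.0719. Srebf1 had 6.62, 6.49 and 6.68 after LPS, against 6.26, 6.21 and 6.52 after saline, a difference of 0.27 ± 0.16. LPS 2 was below saline 3, so its groups overlapped, and each LPS array was above the saline array of its number.

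The proteins that hold or carry SREBPs had differences near 0. Insig1, itself an SREBP target, had log2 signals of 8.86, 8.99 and 9.44 after LPS, against 9.06, 8.92 and 9.54 after saline, and differed by -0.08 ± 0.22 (SE). Both arrays numbered 3 were high in Insig1, and more so in Insig2, which read 7.80 in LPS 3 and 7.93 in saline 3 against at most 6.98 elsewhere. Insig2 differed by -0.09 ± 0.34 and Scap by -0.02 ± 0.14, and without saline 3 Insig1 and Insig2 turned to 0.10 and 0.23. Of the sterol handling genes, Stard4, a carrier of cholesterol between membranes, had 6.73, 6.23 and 6.24 after LPS, against 6.80, 6.69 and 6.78 after saline. LPS 2 and LPS 3 were below all saline arrays and LPS 1 was not, for a difference of -0.36 ± 0.18. Soat1, which esterifies cholesterol for storage, differed by -0.13 ± 0.15, and its second, dimmer cluster by 0.08 ± 0.18.

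Fatty acid synthesis genes had differences of either sign around 0. Fasn, the synthase, had log2 signals of 10.07, 10.09 and 9.72 after LPS, against 10.02, 10.30 and 9.57 after saline. The groups overlapped throughout, and the difference of -0.007 ± 0.22 (SE) had a limma 95% interval of -0.51 to 0.50. Acaca, which makes malonyl-CoA, had 8.41, 8.21 and 8.29 after LPS, against 8.26, 8.46 and 8.23 after saline, and differed by -0.01 ± 0.15 (interval -0.36 to 0.34). Acly, which supplies acetyl-CoA from citrate, differed by -0.07 ± 0.32. Its arrays numbered 3 stood at 9.71 in LPS 3 and 9.55 in saline 3, below the other arrays at 10.30 or more.

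Desaturases and elongases also had small differences. Scd1, a stearoyl-CoA desaturase, had log2 signals of 8.32, 8.57 and 8.54 after LPS, against 8.43, 8.15 and 8.79 after saline, and differed by 0.02 ± 0.20 (SE). Its relative Scd2 had 12.06, 11.95 and 11.43 after LPS, against 12.24, 12.06 and 11.54 after saline. Each LPS array of Scd2 was below the saline array of its number, and both arrays numbered 3 were below the other 4, for a difference of -0.13 ± 0.24. Scd2 had 8 clusters in the deposited table, some with identical values, and their differences ran from -0.13 to 0.16. The delta-5 and delta-6 desaturases Fads1 and Fads2 differed by 0.11 ± 0.16 and -0.15 ± 0.16, and the elongases Elovl5 and Elovl6 by 0.004 ± 0.18 and -0.18 ± 0.21. Of the 9 genes 6 had a negative difference. That count was 3 without saline 1, 7 without LPS 1 or saline 3 and 8 with arrays centred on their medians, and the median turned to 0.01 without saline 1 and with repeated quantile normalization.

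Part of the spread within each group moved with array number 3. Over all clusters, deviations from the group means correlated at 0.27, 0.12 and 0.56 between LPS and saline arrays of numbers 1, 2 and 3. LPS 1 correlated more with saline 2 (0.41) and LPS 2 more with saline 1 (0.14) than with their own numbers, so that number 3 alone stood out. Set against the saline array of the same number, LPS was lower on all 3 numbers in 16 of the 34 members and higher on all 3 in 2, Lss and Srebf1, where 13.5% and 13.1% of all clusters, or 18.2% and 10.9% of the brighter ones, did so. Of the 16, 11 were sterol pathway genes. With the number as a block the standard error of Insig2 was 0.13 against 0.34 without it, and that of Acly was 0.15 against 0.32. No member passed with the block either, and the lowest adjusted p was 0.68, for Cyp51.

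Genes of related pathways, none of them members, were counted from lists. Of the 8 measured genes of LXR signalling and sterol export 4 had a negative difference and 0 passed, with the exporter Abca1 at 0.47 ± 0.18 (SE) and a median of 0.006. Of 4 sterol hydroxylases 3 were negative and 0 passed, with Ch25h, which makes 25-hydroxycholesterol, at 0.94 ± 0.40. Its log2 signal was 4.71, 5.00 and 6.41 after LPS, against 4.33, 4.23 and 4.74 after saline, and LPS 3 was far above the other arrays. Of 16 further fatty acid synthesis genes 7 were negative and 0 passed, with a median of 0.007.

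Markers of other cell types were read beside these genes. Of 12 oligodendrocyte markers 9 had a negative difference, with a median of -0.12, and their array means were 9.24, 8.999 and 9.61 in the LPS arrays, against 9.33, 9.33 and 9.76 in the saline arrays. LPS 2 was lowest for these markers and for the sterol pathway. LPS 3 was above saline 1 and saline 2 for the markers and below them for the pathway. For the markers, however, both arrays numbered 3 were the highest of their group. In both lists each LPS array was below the saline array of its number. The pathway means were 7.86, 7.67 and 7.84 after LPS against 7.97, 7.96 and 8.08 after saline. Of 6 oligodendrocyte precursor markers 5 were negative, with a median of -0.18, and array means of 7.81, 7.70 and 7.92 after LPS against 8.004, 7.92 and 8.01 after saline. The summed linear signal of the oligodendrocyte list ran from 9881 to 14996 after LPS and from 11541 to 15345 after saline, and that of the precursor list from 1556 to 1792 and from 1660 to 2001 in the same order. Of 14 microglia markers 12 were negative, with a median of -0.24. Their array means were 6.26 to 6.56 after LPS against 6.47 to 6.81 after saline, with summed signals of 1322 to 1782 against 1577 to 1898. The markers did not move as 1 set, and none passed the test. P2ry12, Siglech and Fcrls fell most, by -1.24 ± 0.34 (SE), -0.94 ± 0.24 and -0.70 ± 0.20. The 2 positive ones were Itgam, the CD11b gene, at 0.35 ± 0.17 and C1qa at 0.53 ± 0.18. No marker was at 0 on this log2 scale. Of 10 astrocyte markers 8 were positive, with a median of 0.19. Their array means were 8.62, 8.60 and 8.75 after LPS against 8.53, 8.31 and 8.38 after saline, so that the groups did not overlap, and Gfap, a marker of reactive astrocytes, differed by 1.19 ± 0.28 without passing the test. Their summed signals were 6678 to 7141 after LPS against 5275 to 6219 after saline. Of 12 neuron markers 7 were negative, with a median of -0.03 and array means of 10.87 to 11.02 after LPS against 10.84 to 11.07 after saline. The part of these cells in the sterol result was not tested. Fewer cells of a type, less RNA per cell and a change in how much of that RNA the pulldown carried cannot be told apart.

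**Figure D4:**
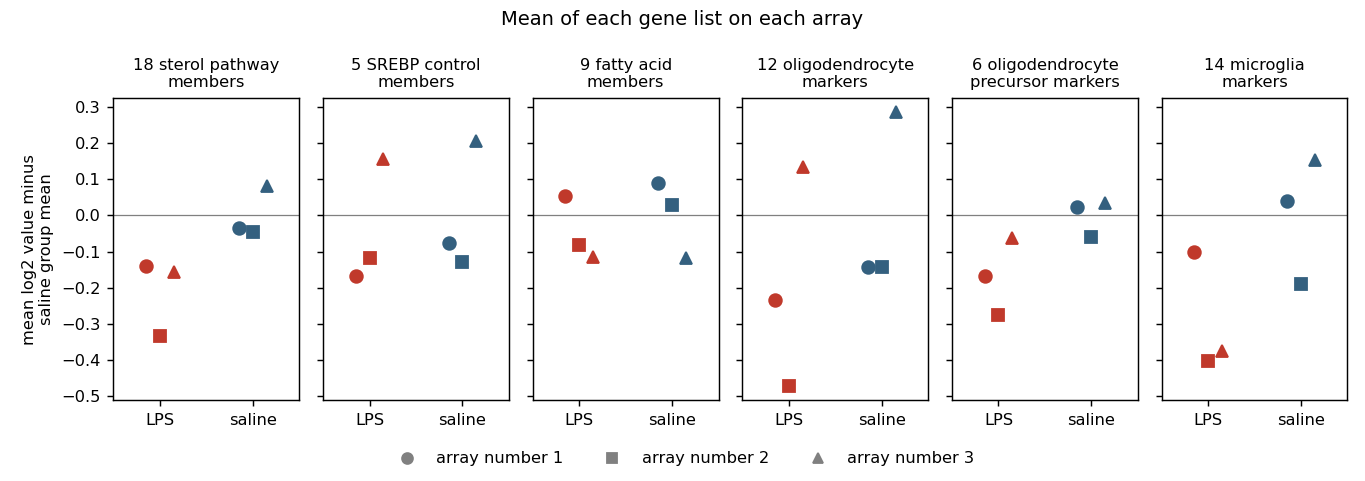
Mean log2 value of 6 gene lists on each array, as the distance from the list's saline group mean, with LPS left and saline right in each panel and the symbol giving the array number. The 3 LPS arrays lie below the 3 saline arrays for the sterol pathway members (-0.14, -0.33 and -0.16 against -0.04, -0.05 and 0.08) and, by less than 0.01 at the nearest pair, for the oligodendrocyte precursor markers, and overlap them for the fatty acid members and the oligodendrocyte markers.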

How the data were processed

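RNA bound to tagged ribosomes was measured on 6 Affymetrix mouse gene arrays, 3 after LPS and 3 after saline, each from 100 ng of RNA, per the labels' protocols. The authors deposited log2 values (RMA; Expression Console is also named), per the submitters' processing notes. RMA subtracts background, equalises arrays at probe level and summarises probes, which compresses differences of dim clusters. The authors' deposited table, made with Transcriptome Analysis Console 3.0 per the series' design text, gives bi-weight log2 averages, a signed linear fold (here a score), and ANOVA p-values before and after FDR adjustment, per the file headers. The build behind the authors' array annotation is not stated, and promoter coordinates are those of the RefSeq table.

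Of 41345 clusters in the value table, the 34472 in the deposited comparison table were fitted by limma (version 3.58.1, R version 4.3.3, group as the only term, eBayes, two-sided), with Benjamini-Hochberg adjustment over all of them at 0.05. The fit was tested on simulated data. SE is limma's moderated standard error, SD is between the 3 arrays of a group, and the number of arrays limits the precision. All members are named, and values of every array are given for members without overlap between groups, the 10 with the smallest p, and some others for their roles. The members and lists were chosen with earlier results of these data known. Values in other settings cover the replicate block, single arrays left out, 2 further normalizations between arrays, array weights, a mean log2 of at least 6, all clusters, an intensity trend, an unmoderated test and other clusters of a symbol. Deviations of same-numbered arrays correlated at over 0.1 for each number, the criterion used for a pairing, but 2 pairs of unlike number did so too, in which LPS 1 and LPS 2 exceeded the values of their own numbers, so the criterion does not single out the numbers. What a number stands for is not stated. Some further genes of these pathways are not reported here. Of the lists, the LXR gene Nr1h3 and the endothelial marker Ly6a had no cluster under that symbol. Monocyte, neutrophil, endothelial and hepatocyte markers had median differences of 0.14, 0.40, 0.14 and -0.006. Most of these markers were dim: 2 of 6, 0 of 9, 1 of 6 and 1 of 7 had a mean log2 signal of at least 6, in that order.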

Additional observations from a re-analysis of the deposited data

How the results depend on the processing

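No member passed the threshold in any of the 15 other settings (limma, lowest adjusted p 0.48). At an unadjusted p under 0.05, 2 members were lower in the reported setting and 1 to 8 in the others. The reported setting passed 0.772% of all clusters downward (0.726% of the brighter ones). The 8 came with array weights, where 3.71% of all clusters (3.26%) passed downward. The number of clusters called, 1 as reported, was 3 with the replicate block, 22 with array weights, 2 without both arrays numbered 3 (a setting chosen after seeing the data), 0 over all clusters of the value table and 0 with the unmoderated test, and ran from 0 to 12 with single arrays left out. The replicate block changed no member's call at the adjusted threshold, and took members at an unadjusted p under 0.05 to 4 (2.52% of all clusters). The sterol median, -0.24, ran from -0.26 to -0.14 with single arrays left out and from -0.27 to -0.14 over all settings. The median of all members, -0.12, was -0.19 with array weights and ran from -0.21 to -0.10 with single arrays left out. That of the fatty acid members, -0.01, was -0.16 with array weights and ran from -0.09 to 0.01 with single arrays left out. Members without overlap, 5 as reported, numbered 3 with repeated quantile normalization (3.86% of all clusters) and 12 without both arrays numbered 3 (17.8%). Leaving out single arrays also moved, without a change of sign, Elovl6 to between -0.31 and -0.0074, Fads1 to between 0.028 and 0.18, Fads2 to between -0.25 and -0.069, Lss to between 0.10 and 0.35 and Soat1 to between -0.18 and -0.082.

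Of 513 member values in other settings 42 changed sign, all in 14 members with small differences, and 20 members never did. With single arrays left out these ran from -0.089 to 0.15 for Acat2, -0.21 to 0.038 for Mvk, -0.12 to 0.0025 for Tm7sf2, -0.12 to 0.090 for Dhcr7, -0.079 to 0.018 for Scap, -0.25 to 0.10 for Insig1 and -0.40 to 0.23 for Insig2. Among fatty acid genes they ran from -0.42 to 0.16 for Acly, -0.066 to 0.061 for Acaca, -0.20 to 0.16 for Fasn, -0.086 to 0.13 for Elovl5, -0.13 to 0.18 for Scd1 and -0.34 to 0.055 for Scd2. With arrays centred on their medians Elovl5 was -0.031 and Scd1 -0.015. With repeated quantile normalization Scap was 0.0083, Acaca 0.015 and Fasn 0.015. With array weights Dhcr7 was 0.055 and Elovl5 -0.19, and without both arrays numbered 3 they were 0.063 and -0.13. The lowest cluster gave 0.084 for Soat1 and 0.13 for Scd2. The cause was not tested. The number of arrays limits what these differences can show.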

Other observations

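The deposited averages give some members another sign than the plain means. In the authors' deposited table, which uses bi-weight averages of 3 arrays, 5 of the 34 members differ in sign from the limma difference: Acat2, Tm7sf2, Acaca, Fasn and Elovl6. The widest gap between both estimates was 0.29 log2 units, for Hmgcs1. The table's unadjusted ANOVA p was under 0.05 for 3 members, Cyp51, Nsdhl and Srebf2, all lower after LPS. Its FDR-adjusted p was 0.9999 for each of them. In the unmoderated equal-variance test 1.41% of all clusters, and 1.87% of the brighter ones, were under 0.05 downward. The table's median log2 difference over the members was -0.09.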
